A study of Mus musculus with 8 samples.

Results

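Cd74, H2-Aa, H2-Ab1, H2-Eb1, Ciita, Ctss and Ebf1 were followed across 8 mouse gene expression arrays of T cells cultured toward the Th17 fate. They are 7 of the 19938 genes that could be named on the array by a probe set assigned to 1 symbol alone, and each had 1 such probe set. The genes were selected on their log2 values in both comparisons, with earlier results known, so their values are given as a description and without a test. The question behind the choice was whether antigen-presenting cells in the cultures could carry these signals.

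The arrays came from 2 experiments of 4 arrays each. In the first, Th17 cells from SRC3-deficient mice, whose source label reads SRC-3 (f/f), were set against SRC3-WT Th17 cells. In the second, Th17 cells from RORgt-deficient mice, labelled RORgt (-/-), were set against RORgt-WT Th17 cells. Each of the 4 groups had 2 arrays. SRC-3, the product of Ncoa3, is a nuclear receptor coactivator, and RORγt is the nuclear receptor that directs the Th17 programme. All groups started from naive CD4 T cells stimulated through CD3 and CD28 with interleukins 1, 6 and 23. The labels name no Cre driver for the (f/f) mice and no age, and (-/-) cells come from animals that lack RORγt in every cell type. By their titles the arrays of a group are biological replicates, but no label says whether each had its own mouse. On SRC3-deficient replicates 1 and 2 the X-linked transcript Xist read 7.10 and 13.60. The Y-linked gene Eif2s3y read 11.16 and 4.87 there, so these 2 arrays were male and female and came from different mice. The p-values cover the spread among the arrays of each group. In the other groups that spread may be technical, which was not tested. All values are log2 signals, on which 1 unit is a doubling, and their precision is limited by the number of arrays.

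MHC class II molecules display peptides from the endosome to CD4 T cells. Each is made of an α chain and a β chain, such as those encoded by H2-Aa and H2-Ab1, and is held by the invariant chain Cd74 until cathepsin S, the product of Ctss, trims that chain. Ciita is the coactivator that switches the class II genes on in B cells, dendritic cells and macrophages, and mouse T cells are known for making little class II of their own. Ebf1 is a transcription factor that specifies B cells and is also made by stromal cells, so it can mark either source in a T cell culture.

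Ciita acts on a promoter module of class II genes that holds an X box and a Y box, of which the Y box is an inverted CCAAT sequence. The promoters of H2-Aa and H2-Eb1, the class II chain genes matched in the RefSeq promoter table, are shown because Ciita is known to act on class II promoters. Those of H2-Oa and H2-Ob were added after their values had been seen, because these 2 genes encode the chains of a single heterodimer. Each line gives the 250 bases before the gene start in RefSeq build GRCm38.p6, 5′ to 3′ on the strand of the gene. Capitals mark matches, on either strand, to ATTGG (the core of the Y box) and ACNGATG (a part of the X box), which do not overlap each other.
H2-Aa (chr17:34287824-34288073, minus strand): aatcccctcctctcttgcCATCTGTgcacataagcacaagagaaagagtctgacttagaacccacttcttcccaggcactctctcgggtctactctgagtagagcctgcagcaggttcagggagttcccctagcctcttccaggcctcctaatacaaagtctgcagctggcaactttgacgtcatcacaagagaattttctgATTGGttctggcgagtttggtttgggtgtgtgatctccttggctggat
H2-Eb1 (chr17:34305617-34305866, plus strand): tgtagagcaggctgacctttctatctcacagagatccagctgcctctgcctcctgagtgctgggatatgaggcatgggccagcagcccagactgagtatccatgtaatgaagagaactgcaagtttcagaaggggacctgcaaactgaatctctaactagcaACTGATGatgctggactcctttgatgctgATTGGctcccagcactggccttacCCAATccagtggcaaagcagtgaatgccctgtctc
H2-Oa (chr17:34092129-34092378, plus strand): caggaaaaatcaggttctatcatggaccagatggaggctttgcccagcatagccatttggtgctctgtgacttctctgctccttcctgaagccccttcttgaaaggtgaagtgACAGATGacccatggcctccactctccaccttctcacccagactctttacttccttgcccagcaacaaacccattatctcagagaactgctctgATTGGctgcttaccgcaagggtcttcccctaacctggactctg
H2-Ob (chr17:34238655-34238904, plus strand): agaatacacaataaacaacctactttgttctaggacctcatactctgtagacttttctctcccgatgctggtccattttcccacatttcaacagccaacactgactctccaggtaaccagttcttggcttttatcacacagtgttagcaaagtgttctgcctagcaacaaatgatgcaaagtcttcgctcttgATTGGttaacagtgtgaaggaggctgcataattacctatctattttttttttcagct

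All 4 promoters held ATTGG on the strand of the gene. It lay 48 to 44 bases before the start in H2-Aa, 59 to 55 in H2-Eb1, 43 to 39 in H2-Oa and 57 to 53 in H2-Ob. H2-Eb1 had a further copy on the other strand, which reads CCAAT on the strand shown. The letters ACNGATG lay 88 to 82 bases before the start in H2-Eb1 and 137 to 131 bases before it in H2-Oa. On the other strand they lay 232 to 226 bases before it in H2-Aa. The matches in H2-Aa and H2-Oa were further from ATTGG than that in H2-Eb1. No match lay in this window of H2-Ob. The search allowed no mismatch, so it neither places an X box nor shows that H2-Ob lacks one. Of 32851 promoters of the same length, 33.8% held ATTGG, 8.31% held ACNGATG and 2.77% held both, so these letters describe the 4 windows and do not mark binding. Of the 7 genes, 4 had an entry in the promoter table.

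Some properties of the arrays touch every result. Ncoa3 had a log2 fold change of −0.58 in SRC3-deficient cells, with a limma adjusted p of 0.0567. The X-linked transcript Xist read 6.37 and 6.08 in RORgt-deficient cells, against 12.55 and 12.76 in RORgt-WT cells, so genotype and sex cannot be told apart in that comparison. SRC3-deficient replicate 1, at 7.10, also lacked the Xist signal that the other 3 SRC-3 arrays had. The Y-linked gene Eif2s3y read 11.16 on that array and 4.87 in SRC3-deficient replicate 2, against 4.91 and 4.59 in SRC3-WT cells. It read 10.47 and 10.48 in RORgt-deficient cells, against 4.84 and 4.63 in RORgt-WT cells. The SRC3-deficient group thus joined a male and a female array. Cd3e, a chain of the T cell receptor complex, read 12.68 to 13.56 and Cd4 12.86 to 13.09 over the 8 arrays. As a guide to the level without expression, 1210 probe sets of odorant and vomeronasal receptors, genes of sensory neurons, were used. Their 95th percentile lay between 7.23 and 7.41 on the 8 arrays and is called the floor. Different probe sets respond differently, so a signal over the floor ranks no gene against another. In bulk RNA, fewer cells of a type and less RNA per cell cannot be told apart.

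The 7 genes did not differ between genotypes as 1 block. Cd74 was higher in SRC3-deficient cells and lower in RORgt-deficient cells than in the wild type of each experiment, Ebf1 was lower in RORgt-deficient cells, and Ctss was a little higher in both deficient groups. The class II chains H2-Ab1 and H2-Eb1 had overlapping groups in both comparisons. H2-Aa and Ciita lay close to the floor.

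Cd74 read 10.70 and 10.94 in SRC3-deficient cells, against 10.05 and 10.32 in SRC3-WT cells. It read 10.95 and 11.03 in RORgt-deficient cells, against 11.86 and 11.54 in RORgt-WT cells. The groups did not overlap in either experiment, and the direction was opposite. The log2 fold change was 0.63 (SE 0.14), a ratio of 1.55, for SRC3-deficient over SRC3-WT cells. It was −0.71 (SE 0.14), a ratio of 0.612, for RORgt-deficient over RORgt-WT cells. Leaving out each array in turn kept both signs, with log2 fold changes of 0.50 to 0.77 in the SRC-3 experiment and −0.87 to −0.55 in the RORγt experiment. The SRC3-deficient array without the Xist signal was the lower one of its group, and without it the log2 fold change was 0.75.

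The α chain gene H2-Aa read 7.20 and 7.88 in SRC3-deficient cells, against 7.54 and 7.82 in SRC3-WT cells. In the other experiment it read 7.18 and 7.79 in RORgt-deficient cells, against 7.25 and 6.85 in RORgt-WT cells. The groups overlapped both times, and 4 of the 8 arrays were under the floor. The log2 fold changes were −0.14 (SE 0.26) and 0.43 (SE 0.26), so no difference between genotypes stood out from the spread.

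The β chain gene H2-Ab1 lay above the floor on all 8 arrays. It read 9.69 and 9.36 in SRC3-deficient cells, against 9.74 and 9.63 in SRC3-WT cells. It read 10.83 and 11.14 in RORgt-deficient cells, against 11.21 and 11.06 in RORgt-WT cells. The log2 fold changes, −0.16 (SE 0.14) and −0.15 (SE 0.14), were close to their errors and the groups overlapped. The larger gap was between the experiments, whose arrays did not overlap for this gene.

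H2-Eb1 encodes the β chain of the other class II isotype. It read 8.39 and 8.57 in SRC3-deficient cells, against 8.37 and 8.51 in SRC3-WT cells. In RORgt-deficient cells it read 8.57 and 8.67, against 8.70 and 8.60 in RORgt-WT cells. All 8 values lay between 8.37 and 8.70, above the floor on every array, and the log2 fold changes were 0.04 and −0.03 with an SE of 0.09 each.

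Ciita, the coactivator of the class II genes, read 7.27 and 7.25 in SRC3-deficient cells, against 7.37 and 7.41 in SRC3-WT cells. It read 7.15 and 6.97 in RORgt-deficient cells, against 7.08 and 7.15 in RORgt-WT cells. The 2 SRC3-WT arrays were just over the floor and the other 6 were under it. The groups of the SRC-3 experiment did not overlap, with a log2 fold change of −0.13 (SE 0.08). Those of the RORγt experiment overlapped, at −0.05 (SE 0.08). At this level the array gives little more than a limit on how much Ciita transcript was present.

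Ctss, the protease that frees class II from the invariant chain, read 10.42 and 10.47 in SRC3-deficient cells, against 10.31 and 10.23 in SRC3-WT cells. It read 10.59 and 10.55 in RORgt-deficient cells, against 10.38 and 10.17 in RORgt-WT cells. Both deficient groups lay above their wild type without overlap, by 0.18 (SE 0.08), a ratio of 1.13, and by 0.30 (SE 0.08), a ratio of 1.23. Cd74 differed in the same direction as Ctss in the SRC-3 experiment and in the opposite one in the RORγt experiment.

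Ebf1 read 10.39 and 10.28 in SRC3-deficient cells, against 10.42 and 9.46 in SRC3-WT cells. It read 10.14 and 10.12 in RORgt-deficient cells, against 11.37 and 11.54 in RORgt-WT cells. SRC3-WT replicate 2 stood apart, and the other 3 arrays of that experiment lay between 10.28 and 10.42. The log2 fold change there was 0.40 (SE 0.26), but −0.08 without SRC3-WT replicate 2 and 0.88 without SRC3-WT replicate 1. In the RORγt experiment the groups were well apart, with a log2 fold change of −1.33 (SE 0.26), a ratio of 0.399, and −1.41 to −1.24 over all alternatives.

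**Figure D1:**
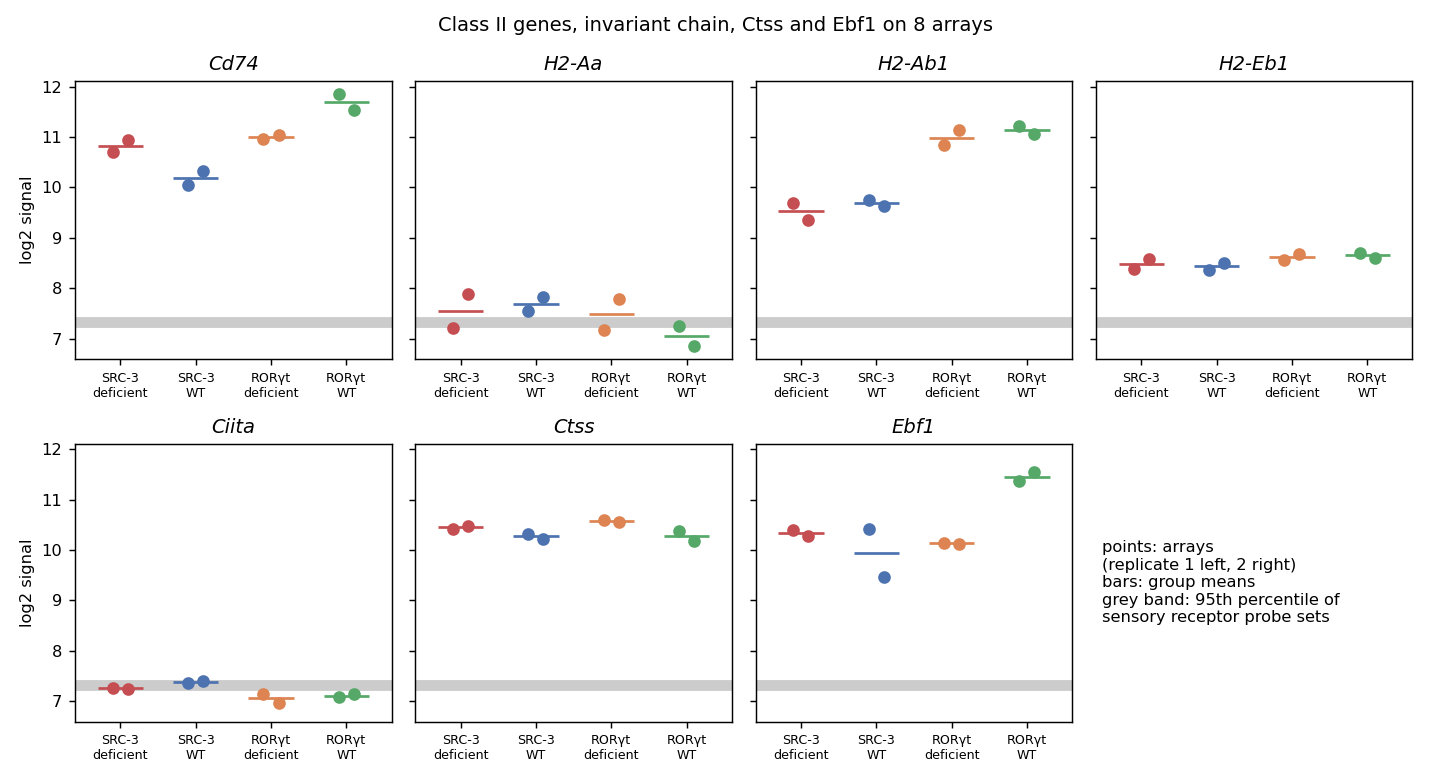
Log2 signal (vertical axis) of the 7 genes on the 8 arrays, with a point per array, a bar at the mean of each group and the floor as a grey band. Cd74 lies above its wild type in SRC3-deficient cells and below it in RORgt-deficient cells, Ebf1 is highest in the 2 RORgt-WT arrays, and Ciita and H2-Aa lie at or near the band.

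For the count of genes that passed the test, limma p-values were given a Benjamini-Hochberg adjustment across the 11128 genes with a signal of at least 7.85 on at least 2 arrays, and an adjusted p under 0.05 was called. Of the 7 genes, 5 passed that filter on low signals, and H2-Aa and Ciita did not. In the SRC-3 comparison limma called 0 of these 5, where 0.225% of all genes tested were called. In the RORγt comparison it called 3 of the 5, where 19.4% of all genes were called. Ctss was the higher one, beside 10% of all genes called as higher, and Cd74 and Ebf1 were the lower ones, beside 9.37% called as lower. The difference of the 2 log2 fold changes passed for 1.67% of all genes, and it was not tested for the 7. Groups did not overlap for 3 of the 7 genes in the SRC-3 comparison, against 34.9% of all named genes, and for 3 of the 7 in the RORγt comparison, against 57.4%. The median log2 fold change of the 7 was 0.04 and −0.05 in the SRC-3 and RORγt comparisons, beside 0.00 and −0.01 over all named genes. Since these contrasts were known when the genes were chosen, nothing is read from the counts.

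The levels of the wild types, which were not compared by a test, differed between the experiments for several of these genes. Cd74 averaged 11.70 ± 0.22 in RORgt-WT cells and 10.18 ± 0.19 in SRC3-WT cells (SD, n = 2 each). H2-Ab1 averaged 11.14 ± 0.10 in RORgt-WT cells and 9.68 ± 0.08 in SRC3-WT cells (SD, n = 2 each). Ebf1 averaged 11.46 ± 0.12 in RORgt-WT cells and 9.94 ± 0.68 in SRC3-WT cells (SD, n = 2 each). Ctss, at 10.28 ± 0.14 and 10.27 ± 0.06, and H2-Eb1, at 8.65 ± 0.07 and 8.44 ± 0.10, were close in RORgt-WT and SRC3-WT cells (SD, n = 2 each). The median of all probe sets was lower on each of the RORγt arrays, 7.76 at the lowest, than on any SRC-3 array, 7.93 at the highest. That median does not tell how bright genes such as Cd74, H2-Ab1 and Ebf1 shifted between the experiments. Mouse colony, culture and array run cannot be told apart between the experiments.

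Among the other genes of the class II pathway, 9 were on the array and 6 passed the filter. In the RORγt comparison the median log2 fold change of the 6 was −0.09, beside 0.00 over all genes tested. Of them 1 (16.7%) passed the test and fell, beside 19.4% of all genes tested called in either direction. The gene was H2-Oa, the α chain of the H2-O heterodimer that restrains peptide loading. It read 8.72 and 8.90 in RORgt-deficient cells, against 9.65 and 9.40 in RORgt-WT cells, a log2 fold change of −0.72 (SE 0.13, limma adjusted p = 0.0116). The call was lost without RORgt-deficient replicate 1 or RORgt-WT replicate 1, where 0 of the 6 were called. Its partner chain H2-Ob, singled out after its values were seen, read 8.95 and 9.36 in RORgt-deficient cells, against 8.61 and 8.66 in RORgt-WT cells, 0.52 (SE 0.26) with a limma adjusted p of 0.20. The 2 chains of the heterodimer thus had log2 fold changes of opposite sign, and that of H2-Ob did not pass. H2-Ob did pass as higher with the 4 arrays of the RORγt experiment alone and with a replicate block. H2-DMa, a chain of the peptide exchange factor H2-DM that was also singled out afterwards, had a log2 fold change of −0.14 (SE 0.07, limma adjusted p = 0.234) in RORgt-deficient cells. For SRC3-deficient cells limma called 0 of the 6, and 1 had an unadjusted p under 0.05. H2-Eb2, H2-Ea and Marchf1, the ubiquitin ligase that removes class II from the surface, were at the floor on all 8 arrays.

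Genes of class I presentation serve the loading of peptides from the cytosol, and Psmb9, Tap1, Psmb8 and Tap2 among them lie between class II genes. All 14 of that list passed the filter. Of them 7 (50%) rose in RORgt-deficient cells while 0 fell, beside 10% of all genes tested called as higher. Their median log2 fold change was 0.24, beside 0.00 over all genes tested. Tapbp, which bridges class I to the peptide transporter, read 12.72 and 12.65 in RORgt-deficient cells, against 12.28 and 12.25 in RORgt-WT cells (0.42, SE 0.07, limma adjusted p = 0.00879). The transporter subunit Tap1 read 12.21 and 12.07 in RORgt-deficient cells, against 11.60 and 11.59 in RORgt-WT cells (0.54, SE 0.10, limma adjusted p = 0.00975). The immunoproteasome subunit Psmb9 read 11.55 and 11.35 in RORgt-deficient cells, against 10.89 and 10.77 in RORgt-WT cells (0.62, SE 0.12, limma adjusted p = 0.0119). In all 3 genes both deficient arrays lay above both wild types. The others that rose were Nlrc5, the coactivator of class I genes that is a relative of Ciita, and Psmb10, Tap2 and H2-M3. B2m, Calr and Pdia3 averaged lower and did not pass (−0.08, −0.14 and −0.11, limma adjusted p = 0.402, 0.102 and 0.213). The class I chains H2-K1, H2-D1 and H2-T23 were planned for this list but were not among the 14, so the count does not cover them. Under a new quantile normalization 6 of the 14 passed, all higher, and 8 passed when arrays were shifted to a common median. The count was 3 without RORgt-deficient replicate 2 and 0 without RORgt-deficient replicate 1 or without either RORgt-WT array. Against SRC3-WT cells, limma called 0 of the 14, 5 had an unadjusted p under 0.05, and the median log2 fold change was 0.16, beside 0.02 over all genes tested.

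**Figure D2:**
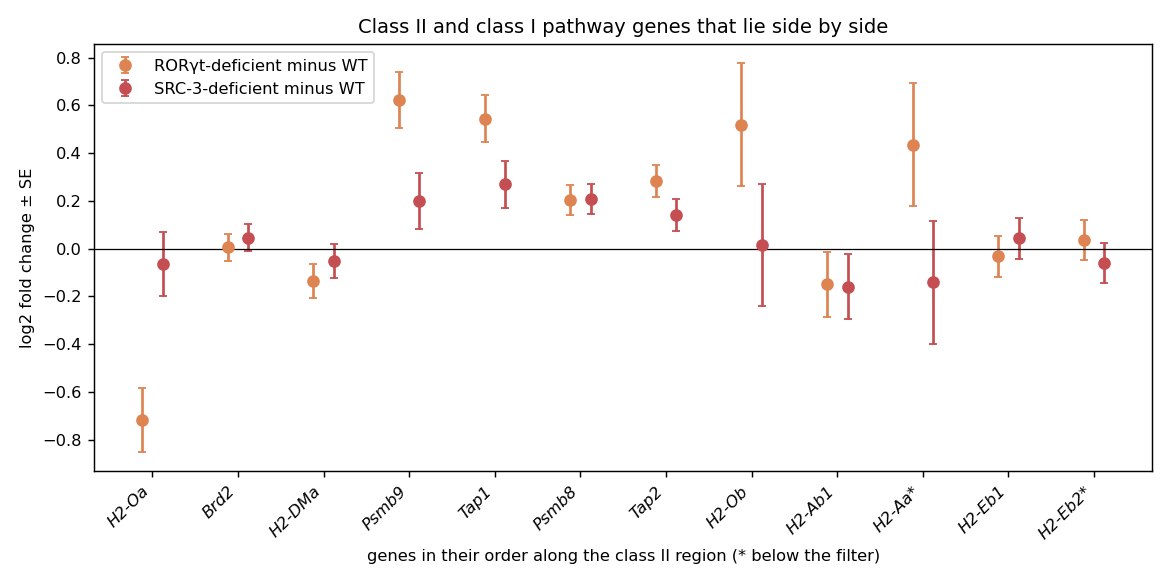
Log2 fold change with its SE (vertical axis) of the genes of the class II region in their RefSeq order (horizontal axis), for RORgt-deficient minus RORgt-WT cells and SRC3-deficient minus SRC3-WT cells. The class I genes Psmb9 and Tap1 lie above 0 in both comparisons, H2-Oa lies at −0.72 in the RORγt comparison, and H2-Ab1 and H2-Eb1 lie close to 0 in both.

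Of the factors that transcribe class II genes, 12 were on the array and 11 passed the filter. In RORgt-deficient cells 2 rose and 1 fell (27.3% called, beside 19.4% of all genes tested), with a median log2 fold change of 0.08. Irf1, an interferon-induced factor that activates the Ciita gene, read 11.09 and 11.14 in RORgt-deficient cells, against 10.61 and 10.49 in RORgt-WT cells (0.56, SE 0.09, limma adjusted p = 0.00641). Nlrc5 rose by 0.51 (SE 0.11, limma adjusted p = 0.0183), from the brightest of 19 probe sets. Nfyb, a subunit of the factor that binds the Y box, fell by 0.35 (SE 0.09, limma adjusted p = 0.0326). Irf1 was the 1 call left without either RORgt-deficient array or without RORgt-WT replicate 1, and 0 were left without RORgt-WT replicate 2. Between SRC3-deficient and SRC3-WT cells limma called 0 of the 11 and 0 had an unadjusted p under 0.05. Spi1, the myeloid and B cell factor PU.1, was at the floor on all 8 arrays.

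The proteases and the reductase that prepare peptides and trim the invariant chain numbered 10 on the array besides Ctss, and 9 passed the filter. In RORgt-deficient cells 1 rose and 2 fell (33.3% called, beside 19.4% of all genes tested), with a median log2 fold change of −0.06. Ctsb, cathepsin B, rose by 0.25 (SE 0.07, limma adjusted p = 0.0398). Ctsz, cathepsin Z, fell by 0.34 (SE 0.07, limma adjusted p = 0.0155), and Cst3, the secreted inhibitor of cathepsin S and related proteases, fell by 0.27 (SE 0.07, limma adjusted p = 0.04). Ctsz alone passed under a new quantile normalization or without RORgt-deficient replicate 2, Cst3 missed the threshold with arrays shifted to a common median, and 0 of the 9 passed without RORgt-deficient replicate 1 or either RORgt-WT array. In the SRC-3 comparison limma called 0 of the 9, and 0 had an unadjusted p under 0.05.

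Markers of antigen-presenting cells were read beside the class II genes, and the source of the class II signals was not tested. Of 61 such markers of B cells, dendritic cells, monocytes and macrophages on the array, 28 were at the floor on all 8 arrays and 16 were above it on all 8. Of the 12 that define a cell type, 6 were at the floor throughout. They were the B cell genes Cd79a (antigen receptor chain) and Ms4a1 (CD20), the dendritic cell integrin Itgax (CD11c), and the macrophage genes Csf1r (growth factor receptor), Lyz2 (lysozyme) and Adgre1 (a surface receptor). Pax5, Flt3 and Siglech, which mark B cells, dendritic cells and plasmacytoid dendritic cells, were under the floor on some arrays. Cd79b, Zbtb46 and Cd68 were above it on all 8, although Zbtb46, a dendritic cell factor, stayed between 7.53 and 7.69.

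The mean log2 signal of the 61 markers was 7.22 and 7.22 in SRC3-deficient cells, against 7.18 and 7.26 in SRC3-WT cells. It was 7.20 and 7.22 in RORgt-deficient cells, against 7.24 and 7.21 in RORgt-WT cells. The groups overlapped in both experiments. Of the 61, 48 were below the filter and 28 were at the floor on all 8 arrays, so a change in a few markers would move this mean little. It therefore does not show whether the content of such cells differed.

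Cd68, a lysosomal protein of macrophages, differed in the same directions as Cd74. It read 9.38 and 9.06 in SRC3-deficient cells, against 8.97 and 8.84 in SRC3-WT cells (0.31, SE 0.13, limma adjusted p = 0.372). It read 9.79 and 10.07 in RORgt-deficient cells, against 10.33 and 10.26 in RORgt-WT cells (−0.37, SE 0.13, limma adjusted p = 0.0834). The groups did not overlap in either experiment, in the directions seen for Cd74, and neither difference passed. Groups also lay apart for 34.9% of all named genes between SRC3-deficient and SRC3-WT cells, and for 57.4% between RORgt-deficient and RORgt-WT cells. Of monocyte and macrophage markers, 2 passed the filter, and the other, Ccr2, was lower in both deficient groups. Its log2 fold change was −0.84 (SE 0.15, limma adjusted p = 0.0726) in SRC3-deficient cells and −0.30 (SE 0.15, limma adjusted p = 0.189) in RORgt-deficient cells. The RORγt difference of Cd68 passed with the 4 arrays of that experiment alone, with a replicate block, and without either SRC3-deficient array. Cd79b, the partner of Cd79a, read 8.05 and 8.26 in RORgt-deficient cells, against 8.45 and 8.30 in RORgt-WT cells (−0.21, SE 0.11, limma adjusted p = 0.214). Of the other defining genes of those cells, Adgre1, Csf1r and Lyz2 for macrophages and Cd79a and Ms4a1 for B cells were at the floor on every array. Pax5, the remaining one for B cells, was under the floor on the 4 RORγt arrays and just over it on the 4 SRC-3 arrays, at 7.30 to 7.44. Because probe sets respond differently, a reading at the floor does not show that a cell type was absent. The part of Cd68 or Cd79b expressing cells in the Cd74 and Ebf1 values was not tested.

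Of the 61 markers, 13 passed the filter. In RORgt-deficient cells 1 rose and 2 fell, which is 23.1% of the 13, beside 19.4% of all genes tested. Pou2af1, a coactivator of octamer factors known from B cells, read 11.05 and 11.29 in RORgt-deficient cells, against 10.19 and 9.95 in RORgt-WT cells (1.10, SE 0.11, limma adjusted p = 0.00145). Batf3, a factor of dendritic cells that activated T cells also express, fell by 0.50 (SE 0.08, limma adjusted p = 0.00795). Fcmr, the IgM receptor, read 7.62 and 7.63 in RORgt-deficient cells, against 7.98 and 7.95 in RORgt-WT cells (−0.35, SE 0.07, limma adjusted p = 0.018). It passed the filter through the 2 RORgt-WT arrays alone, where it is high, so its place among the calls is no support for a fall of these markers. Pou2af1 was higher and Ebf1 lower in RORgt-deficient cells, and the source of either signal was not tested. The count was 1 without RORgt-deficient replicate 1 or RORgt-WT replicate 1 and 2 without either of the other RORγt arrays, and Pou2af1 passed in each. For SRC3-deficient cells limma called 0 of the 13 and 3 had an unadjusted p under 0.05. Among them Ccr2, a chemokine receptor of monocytes and of T helper cells, had a log2 fold change of −0.84 in SRC3-deficient cells (SE 0.15, limma adjusted p = 0.0726) and passed without SRC3-deficient replicate 2.

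**Figure D3:**
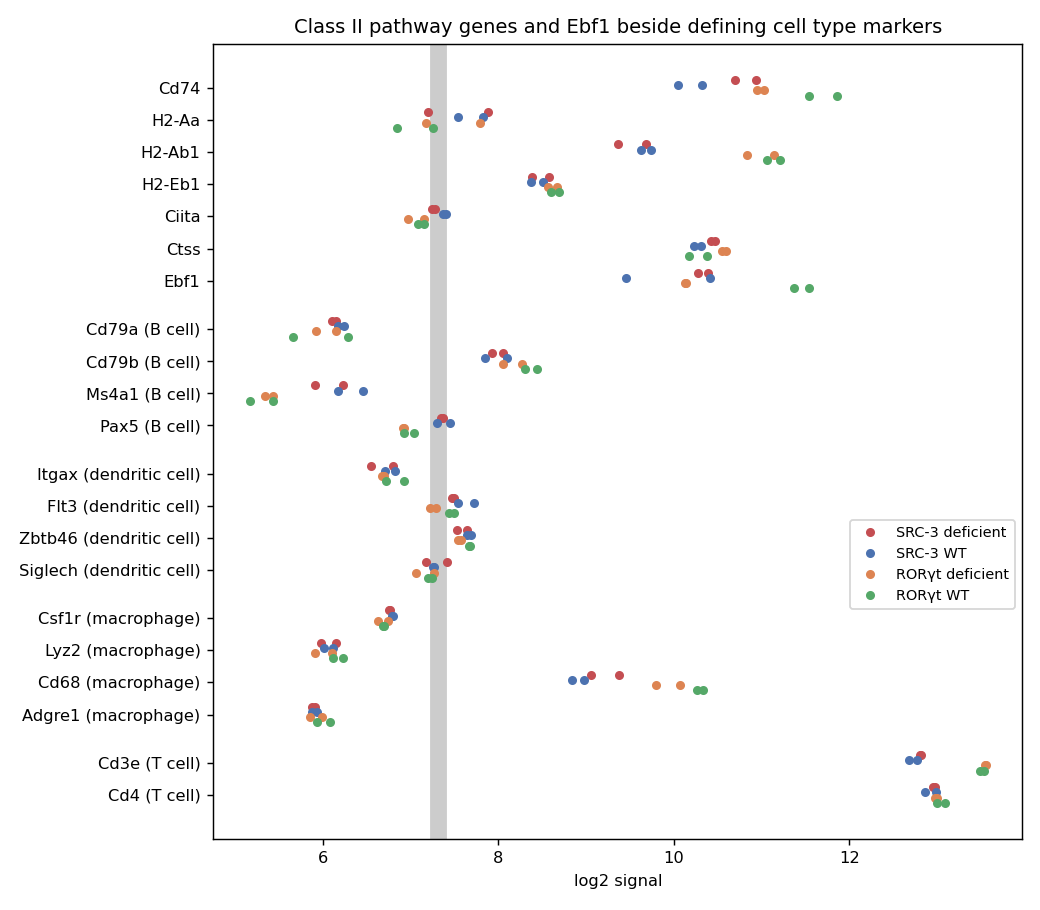
Log2 signal (horizontal axis) of the 7 genes and of defining markers of B cells, dendritic cells, macrophages and T cells, with a point per array coloured by group and the floor as a grey band. Cd79a, Ms4a1, Itgax, Csf1r, Lyz2 and Adgre1 lie to the left of the band on all 8 arrays, while Cd74, H2-Ab1, H2-Eb1, Ctss, Ebf1, Cd68 and the T cell genes lie to its right.

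Ebf1 is also known from stromal cells. Of their 10 markers on the array, 2 were at the floor on all 8 arrays and 6 passed the filter. Of these, 2 (33.3%) fell in RORgt-deficient cells, beside 19.4% of all genes tested called in either direction and 9.37% called as lower. The median log2 fold change of the 6 was −0.08. Lum, the matrix proteoglycan lumican, read 9.25 and 9.23 in RORgt-deficient cells, against 10.81 and 10.56 in RORgt-WT cells (−1.44, SE 0.15, limma adjusted p = 0.0018). Its relative decorin, Dcn, read 10.02 and 9.92 in RORgt-deficient cells, against 10.99 and 10.48 in RORgt-WT cells (−0.76, SE 0.21, limma adjusted p = 0.0399). The drop in Lum was close in size to that of Ebf1. Lum passed without each RORγt array in turn, and Dcn was lost in each of these 4 fits, which left 1 call. The collagen genes Col1a1 and Col3a1, which define fibroblasts, had log2 fold changes of −0.04 (limma adjusted p = 0.707) and −0.08 (limma adjusted p = 0.352). Against SRC3-WT cells, limma called 0 of the 6 and 2 had an unadjusted p under 0.05. There Lum read 9.64 and 10.07 in SRC3-deficient cells, against 10.44 and 10.18 in SRC3-WT cells (−0.46, SE 0.15, limma adjusted p = 0.288). Dcn read 9.38 and 9.95 in SRC3-deficient cells, against 10.56 and 10.47 in SRC3-WT cells (−0.85, SE 0.21, limma adjusted p = 0.16), and passed as lower with a replicate block. Neither gene overlapped between these groups, while Ebf1 averaged higher in SRC3-deficient cells with groups that overlapped. The part of stromal cells in the Ebf1 values was not tested.

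Of the transcription factors that work with Ebf1 in B cell development and its relatives, 16 were on the array and 8 passed the filter. In RORgt-deficient cells 3 rose and 1 fell (50% called, beside 19.4% of all genes tested), with a median log2 fold change of 0.13. Foxo1, Tcf3 (the E protein E2A) and Ikzf3 (Aiolos) rose by 0.48 (SE 0.08, limma adjusted p = 0.00846), 0.27 (SE 0.06, limma adjusted p = 0.026) and 0.61 (SE 0.17, limma adjusted p = 0.0422). Id2, which blocks E proteins, fell by 0.37 (SE 0.06, limma adjusted p = 0.00706). These factors are also made by T cells. Under a new quantile normalization Ikzf3 missed the threshold, and the calls left without a RORγt array were Foxo1 without RORgt-deficient replicate 1, Id2 without RORgt-deficient replicate 2 or RORgt-WT replicate 2, and 0 without RORgt-WT replicate 1. Between SRC3-deficient and SRC3-WT cells limma called 0 of the 8 and 2 had an unadjusted p under 0.05. Of 14 genes of T cell identity, 13 passed the filter and 1, the phosphatase Ptprc (CD45), rose in RORgt-deficient cells by 0.27 (SE 0.07, limma adjusted p = 0.0367), a call lost without any 1 of the 4 RORγt arrays. The 1 call among the 13 is 7.69%, beside 19.4% of all genes tested in the RORγt comparison. In the SRC-3 comparison limma called 0 of the 13 and 2 had an unadjusted p under 0.05.

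To see which genes followed Cd74 and Ebf1, each gene was centred on the mean of its experiment and set against them over the 8 arrays, among 11123 genes. Likeness is the root mean square log2 difference, where a smaller value is closer. The 5 genes nearest to Cd74 were Azin2 (0.158), Icam1 (0.164), Ceacam1 (0.167), Lta (0.170) and Marcks (0.172), beside a root mean square deviation of 0.358 for Cd74 itself. Icam1 and Ceacam1 encode adhesion molecules and Lta a cytokine, lymphotoxin α. Icam1 read 10.47 and 10.59 in SRC3-deficient cells, against 10.12 and 10.26 in SRC3-WT cells, and 9.83 and 9.91 in RORgt-deficient cells, against 10.33 and 10.25 in RORgt-WT cells. In all 5 both SRC3-deficient arrays lay above both SRC3-WT arrays and both RORgt-deficient arrays below both RORgt-WT arrays, which their choice by likeness to Cd74 largely fixes.

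The 5 genes nearest to Ebf1 were Il24 (0.125), the probe set named Mir155 (0.175), Tnfrsf11b (0.213), Ccr6 (0.214) and Ccdc71l (0.218), beside 0.547 for Ebf1 itself. The probe set named Mir155 was matched by its symbol and gives no level of the mature microRNA. Il24, a cytokine of the interleukin 10 family, read 10.74 and 10.40 in SRC3-deficient cells, against 10.68 and 9.73 in SRC3-WT cells. It read 10.70 and 11.13 in RORgt-deficient cells, against 12.18 and 12.28 in RORgt-WT cells. It shared with Ebf1 both the gap in the RORγt experiment and the low value of SRC3-WT replicate 2, which its choice by likeness to Ebf1 largely fixes. Ccr6, the chemokine receptor of Th17 cells, read 8.11 and 7.89 in SRC3-deficient cells, against 7.95 and 7.63 in SRC3-WT cells. It read 6.94 and 6.81 in RORgt-deficient cells, against 8.52 and 8.41 in RORgt-WT cells. By the same measure Cd74 and Ebf1 differed from each other by 0.414.

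**Figure D4:**
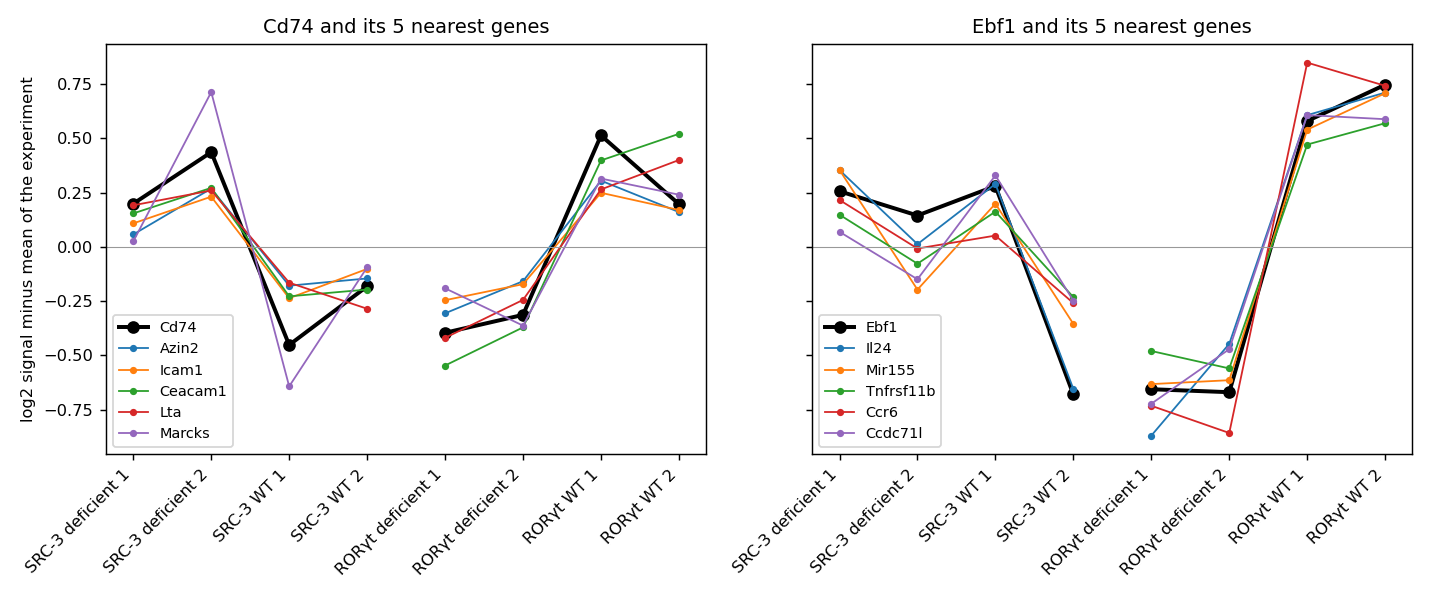
Log2 signal minus the mean of the experiment (vertical axis) on the 8 arrays (horizontal axis) for Cd74 and its 5 nearest genes on the left and Ebf1 and its 5 nearest genes on the right. Lines join the arrays of an experiment as a guide to the eye. SRC3-WT replicate 2 is low for Ebf1 and Il24, and the RORgt-WT arrays are high in both panels.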

How the data were processed

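Total RNA of 8 Th17 cultures was labelled with biotin and hybridised to 8 single-colour Affymetrix mouse gene arrays. The deposited log2 values were made by the authors with RMA in Affymetrix Expression Console, whose version is not given, per the submitters' processing notes; they ran from 3.50 to 15.03 and were not normalised again. RMA on quantiles can damp a shift shared by most genes. The table held 35556 probe sets, of which the platform table gave 21789 exactly 1 symbol, 1621 several and 12146 none. Files name no genome build, so no coordinates of probe sets or whole genes are given. The sequences and coordinates of the promoter windows are those of RefSeq GRCm38.p6, and the order of genes in the class II region is also from RefSeq.

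A gene was tested if its probe set with the highest mean reached the median of all values, 7.85, on at least 2 arrays, and 11128 genes did. Named genes that did not were fitted on the unfiltered table. Means of the 4 groups were fitted in R 4.3.3 by lmFit and eBayes of limma 3.58.1, with 4 residual and 3.53 prior degrees of freedom, two-sided tests and Benjamini-Hochberg adjustment over all genes tested. An SE beside a log2 fold change comes from that fit, and an SD from the arrays of a group. The fit was tested on simulated data, where the share of false calls was over the 0.05 set in the SRC-3 comparison and under it in the RORγt comparison.

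The 7 genes, the gene lists and the tests were chosen with earlier results of these data known. The text names the 7 genes, the defining markers and up to 4 genes per list and comparison past the threshold by smallest p (otherwise up to 2). It also names Ncoa3, Xist, Eif2s3y and the 5 genes nearest to Cd74 and to Ebf1. H2-M3, Psmb10, Tap2, H2-Ob, H2-DMa, Psmb8, Cd83, B2m, Calr and Pdia3 were named beyond this rule, after their values were seen. So were the genes listed as at the floor and those added by an alternative. Genes not found on the platform table under a symbol were not analysed here. Alternatives were 2 other normalizations, other filters, the mean of probe sets, the 4 arrays of a comparison alone, a trended prior, a replicate block and leaving out each array.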

Additional observations from a re-analysis of the deposited data

Results flagged for a closer look

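Cd74 was picked out because its log2 fold change had opposite signs in the 2 experiments, with no overlap between the groups of either. The RORγt log2 fold change minus the SRC-3 one was −1.34 (SE 0.19), and the difference was not tested, since Cd74 was chosen with both contrasts known.

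For genes outside the 7, the difference of the log2 fold changes was tested in the same limma fit. Ncoa3 differed between the experiments, with the RORγt log2 fold change minus the SRC-3 one at 0.76 (limma adjusted p = 0.0394). Ncoa3 encodes SRC-3, which the SRC-3 experiment targets, so part of this difference is set by the design. It was lower in both SRC3-deficient arrays and higher in both RORgt-deficient arrays than in the wild type of each. The RORγt log2 fold change alone, 0.17 (SE 0.09), did not pass (limma adjusted p = 0.222). Pou2af1 differed by 0.96 (limma adjusted p = 0.0312), with both RORgt-deficient arrays above both RORgt-WT arrays and a log2 fold change of 0.14 in SRC3-deficient cells (limma adjusted p = 0.677). Of all genes tested, 1.67% differed between the experiments at this threshold.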

How the results depend on the processing

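The log2 fold changes of Cd74 and Ctss, and of Ebf1 in the RORγt comparison, kept their sign under all alternatives run. In the SRC-3 comparison that of Ebf1 ran from −0.08 to 0.88 around 0.40, and that of H2-Aa from −0.48 to 0.20 around −0.14, both with a change of sign on leaving out 1 array (SRC3-WT replicate 2 for Ebf1, SRC3-deficient replicate 1 for H2-Aa). The number of genes called depended more on the setting. In the SRC-3 comparison it was 25, 14 with a stricter filter, 47 with an intensity trend and robust prior, 0 (827 at an unadjusted p under 0.05) with the 4 arrays alone, and 0 to 61 on leaving out each array. It was 0 without SRC3-WT replicate 2 (1457 unadjusted), 10 without SRC3-deficient replicate 1, 61 without SRC3-WT replicate 1 and 12 without either RORgt-deficient array. In the RORγt comparison it was 2157, 3389 with the 4 arrays alone, and 486 to 2539 on leaving out each array. It was 486 and 1001 without RORgt-deficient replicates 1 and 2, and 626 and 558 without RORgt-WT replicates 1 and 2. The difference of the log2 fold changes passed for 186 genes, for 119 with a stricter filter and for 15 to 264 on leaving out each array. Higher calls in the SRC-3 comparison were 21 of 25, and 16 of 22 after a new quantile normalization. Of the differences 83 of 186 were positive, and 97 of 171 when arrays were shifted to a common median.

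Markers of antigen-presenting cells passed 0 times in the SRC-3 comparison, 1 time with no filter (Btk, higher) and 0 to 1 time on leaving out each array. In the RORγt comparison 3 passed, 5 with no filter, 5 with the 4 arrays alone and 1 to 4 on leaving out each array. The additions were Btk and Bank1, both higher, with no filter and Cd68 and Ccr2, both lower, with the 4 arrays alone. Replicate numbers are shared between groups but the labels do not say that they pair samples. Deviations of same-numbered arrays correlated at 0.536 in the SRC-3 and 0.00174 in the RORγt experiment. With a replicate block 301, 3411 and 945 genes passed in the SRC-3 comparison, the RORγt comparison and for the difference, and 1 (Ccr2, lower) and 5 of the markers passed in the SRC-3 and RORγt comparisons. In the RORγt comparison the 4 arrays alone or the block also added Rfxank, Creb1, Psmb8, Psme1, Ikzf1 and Sparc as higher and Ctsl, Thy1 and Cd247 as lower, and in the SRC-3 comparison the block added Cd8b1 as higher. Apart from the losses named with the gene lists, the cause of these shifts was not tested. Signals near the floor limit what can be said of Ciita, H2-Aa, Btk and Bank1.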
